A study of Mus musculus with 7 samples.

Results

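Mast cell genes were examined in skin papillomas of mice with and without forced NANOG expression. The 8 genes were taken by symbol from the gene tables of all 7 papillomas: Cpa3, Cma1, Mcpt4, Tpsb2, Kit, Ms4a2, Fcer1a and Hdc, out of 23284 symbols listed. In the test used here 5 of the 8 were high enough to be tested, and none of these differed between the groups after correction for multiple testing. The same test called 0 of all 12299 tested genes, Nanog included. The study's own test on the same libraries listed Hdc as higher with forced NANOG expression. The histamine-forming enzyme gene Hdc had the widest spread, from 0.238 FPKM in a control papilloma to 14.3 FPKM in an induced one, whereas the 4 granule protease genes stayed between 0.261 and 3.3 FPKM.

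The mice were C57Bl/6 and carried the Col1a1 tetO-Nanog allele, a doxycycline-dependent mouse Nanog transgene, in both groups. TG mice (n = 3) also carried K5-rtTA, in which a bovine keratin 5 promoter drives the transactivator in keratinocytes of the basal layer and not in mast cells, while CTR mice (n = 4) were littermates lacking it. All animals received doxycycline at 2 mg/ml in the drinking water throughout the DMBA/TPA protocol, in which a mutagen is applied once and a tumor promoter repeatedly, and were 8 to 10 weeks old at the start. TPA was given for 15 weeks, followed by 15 weeks of observation or until a humane endpoint. Each library came from the bulk RNA of 1 papilloma from a different mouse, so a lower level from fewer mast cells and a lower level from less RNA per mast cell cannot be told apart.

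Mast cells are long-lived immune cells of the dermis and other connective tissues that depend on KIT, the receptor for stem cell factor. They store histamine and proteases in granules, bound to the proteoglycan serglycin, and release them when antigen crosslinks IgE on the high-affinity receptor FcεRI. In skin, connective tissue type mast cells carry the carboxypeptidase CPA3, chymases and tryptases, and mast cells have long been seen around chemically induced skin tumors.

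The bases just before the annotated starts of 3 protease genes and of Hdc are shown. These genes were all highest in the same papilloma, TG 3, as were 41.1% of all tested genes, and Hdc had by far the widest spread. The sequences are the 250 bases before the start in the RefSeq table of build GRCm38.p6, 5′ to 3′ on the strand of the gene. Capitals mark GATAA on either strand, a form of the letters read by GATA factors such as GATA2. The windows are chr3:20242182-20242431 for Cpa3, chr14:55944676-55944925 for Cma1, chr14:56062311-56062560 for Mcpt4 and chr2:126618679-126618928 for Hdc, all on the minus strand.
Cpa3: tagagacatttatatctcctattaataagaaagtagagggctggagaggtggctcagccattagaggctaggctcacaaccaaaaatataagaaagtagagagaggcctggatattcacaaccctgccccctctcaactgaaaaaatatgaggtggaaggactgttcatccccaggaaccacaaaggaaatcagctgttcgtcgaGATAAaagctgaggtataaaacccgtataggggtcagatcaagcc
Cma1: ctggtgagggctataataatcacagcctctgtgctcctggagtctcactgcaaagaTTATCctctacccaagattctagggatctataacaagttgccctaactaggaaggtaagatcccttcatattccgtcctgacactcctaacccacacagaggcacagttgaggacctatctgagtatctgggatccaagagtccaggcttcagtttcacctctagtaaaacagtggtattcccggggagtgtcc
Mcpt4: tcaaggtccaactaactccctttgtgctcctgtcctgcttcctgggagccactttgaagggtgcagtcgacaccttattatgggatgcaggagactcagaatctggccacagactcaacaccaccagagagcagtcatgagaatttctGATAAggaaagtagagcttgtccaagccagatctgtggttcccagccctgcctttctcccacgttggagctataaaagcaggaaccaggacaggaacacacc
Hdc: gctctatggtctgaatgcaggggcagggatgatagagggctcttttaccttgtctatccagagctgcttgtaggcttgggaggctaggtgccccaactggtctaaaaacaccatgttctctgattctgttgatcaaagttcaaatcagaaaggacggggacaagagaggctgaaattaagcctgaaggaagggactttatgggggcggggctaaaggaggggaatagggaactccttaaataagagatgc
The letters GATAA were found in the windows of 5 of the 7 members with an entry (Cpa3, Cma1, Mcpt4, Ms4a2 and Fcer1a) and in 22.6% of 32851 promoter windows of the same length. The windows of Hdc and Kit held no GATAA. Other letters that GATA factors may read, such as GATAG, were not searched or marked. The E-box letters CATGTG, read by MITF among other factors, occurred in 1 of the 7 windows (Fcer1a), against 12.3% of all promoters. The related CACGTG occurred in 0 of the 7 windows, against 6.02% of all promoters. The search covered both strands, the 3 motifs do not overlap in letters with one another in these windows, and a match in so short a window is a description of the letters only. Tpsb2 had no entry. The bases just after the annotated start of Fcer1a were found in none of its transcripts, unlike those of the other members with an entry. Its window, counted above for GATAA and CATGTG, is the less certain for it.

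Nanog itself separated the groups, with 2.70, 2.84, 12.7 and 3.34 FPKM in CTR 1 to CTR 4 and 36.9, 57.4 and 66.9 FPKM in TG 1 to TG 3. The difference was 3.45 on the log2(FPKM + 0.5) scale (SE 0.48, limma unadjusted p = 5.82e-05, adjusted p = 0.400) and 3.27 without TG 3. FPKM, the number of fragments per length of transcript and per size of the library, is a level corrected for gene length and library depth. The libraries held 10074859 to 15710562 reads as recovered from the confidence intervals. TG 3 stood apart from the others. Its median FPKM over all genes was 1.14 against 0.539 to 0.673, and its correlations with the other papillomas were 0.903 to 0.937 against 0.945 to 0.977 for all other pairs. Among the 12299 genes tested, 41.1% had their highest level in TG 3, and 60% of the differences were positive. The differences of the 8 members are therefore given with and without it.

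The granule proteases were detected in every papilloma. Cpa3 (chr3:20215616-20242181), the mast cell carboxypeptidase, had 0.694, 0.261, 0.656 and 0.804 FPKM in CTR 1 to CTR 4 and 0.507, 0.776 and 2.07 FPKM in TG 1 to TG 3. TG 1 and TG 2 lay within the CTR range and TG 3 lay above it. The counts behind the levels were small, 6 to 20 reads in the CTR papillomas and 15, 17 and 46 reads in the TG papillomas. The means were 0.604 ± 0.237 (SD, n = 4) and 1.12 ± 0.833 (SD, n = 3). On the log2 scale the difference of Cpa3 was 0.46 (SE 0.36, limma adjusted p = 0.859), and without TG 3 it was 0.07.

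Cma1 (chr14:55941451-55944661), the chymase also called mast cell protease 5, had 0.483, 0.678, 0.374 and 1.11 FPKM in the CTR papillomas and 0.673, 0.952 and 1.66 FPKM in the TG papillomas. The highest was again TG 3, and the groups overlapped. Its difference on the log2 scale was 0.45 (SE 0.31, limma adjusted p = 0.842) and 0.21 without TG 3, with TG above CTR in 9 of 12 pairs. Mcpt4 (chr14:56059744-56062310), the main chymotrypsin-like chymase of connective tissue mast cells, had 1.18, 1.32, 1.07 and 1.86 FPKM in the CTR papillomas and 0.612, 1.29 and 3.3 FPKM in the TG papillomas. TG 1 was the lowest of all 7 and TG 3 the highest. The difference of Mcpt4 was 0.10 on the log2 scale (SE 0.39, limma adjusted p = 0.986), but it was -0.08 after quantile normalization and -0.38 without TG 3, so it had no settled direction.

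Tpsb2 (chr17:25366333-25368092), the tryptase also called mast cell protease 6, was the protease that did not peak in TG 3. It had 1.13, 0.395, 0.820 and 1.64 FPKM in the CTR papillomas and 0.580, 1.25 and 0.822 FPKM in the TG papillomas. All 3 TG values lay within the CTR range. The difference was -0.07 on the log2 scale (SE 0.33, limma adjusted p = 0.988), and it turned positive, 0.09 and 0.12, without TG 1 and without CTR 4. Without TG 3 it was -0.05. Per unit of Cpa3 level, Tpsb2 stood at 1.63, 1.52, 1.25 and 2.04 in the CTR papillomas and at 1.14, 1.61 and 0.398 in the TG papillomas. The ratio was thus lowest in TG 3, where Tpsb2 rested on 14 reads and Cpa3 on 46.

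Summed, the 4 protease genes gave 3.48, 2.66, 2.92 and 5.42 FPKM in CTR 1 to CTR 4 and 2.37, 4.26 and 7.85 FPKM in TG 1 to TG 3. The TG papillomas thus held both the lowest and the highest protease sum. Sequence shared with other genes could move reads among some of them. Of the 40-base windows of the longest annotated transcript, 30.7% of Mcpt4 and 22.1% of Cma1 matched another gene with up to 2 mismatches, against 9.14% of Ms4a2, 4.32% of Tpsb2, 0.848% of Hdc and 0% of Cpa3. The main partners were Cma2, Mcpt9 and Mcpt1 for Mcpt4, the predicted gene Gm48934 for Cma1, Ms4a4b for Ms4a2 and the sister tryptase Tpsab1 for Tpsb2. The levels of Mcpt4, Cma1 and Ms4a2 are the less certain for it.

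**Figure D1:**
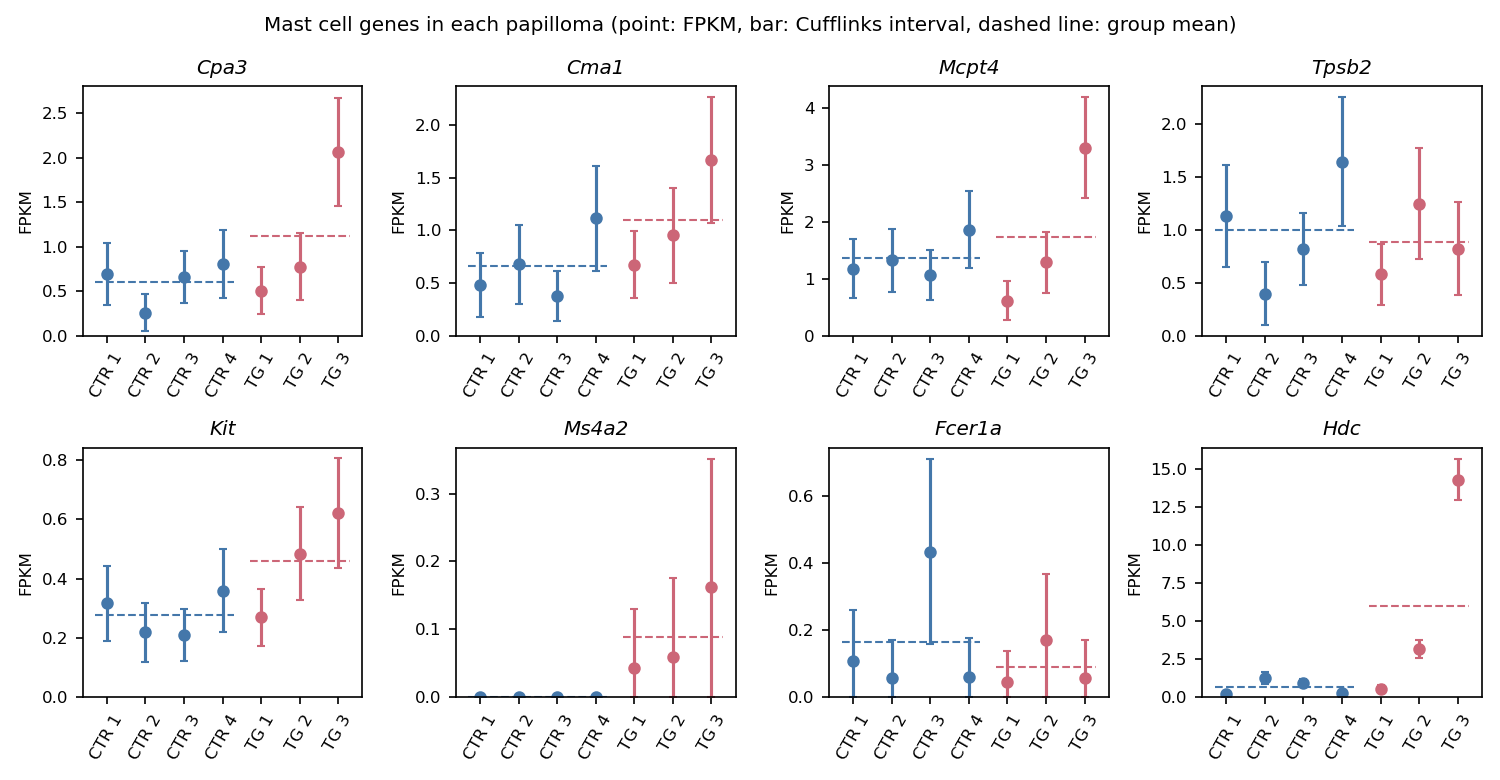
Level in FPKM of each of the 8 genes in every papilloma, 1 panel a gene, with CTR 1 to CTR 4 and TG 1 to TG 3 as points, bars for the interval given with each value and a dashed line at each group mean. In 6 of the 8 genes the highest point is TG 3, and in Hdc it stands at 14.3 FPKM.

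The receptor genes were low. Kit (chr5:75574987-75656721), the receptor for stem cell factor, had 0.317, 0.219, 0.210 and 0.359 FPKM in the CTR papillomas and 0.269, 0.485 and 0.623 FPKM in the TG papillomas. TG 2 and TG 3 lay above the CTR range and TG 1 within it. The means were 0.276 ± 0.074 (SD, n = 4) and 0.459 ± 0.178 (SD, n = 3), and the 2-sided exact permutation test over the 35 assignments of the papillomas gave p = 0.143, where the smallest possible value is 0.0286. The difference of Kit was 0.29 on the log2 scale, 0.17 without TG 3 and 0.09 after quantile normalization. Kit is also carried by melanocytes, and the summed level of 6 melanocyte markers, Tyr and Dct the highest among them, was 1.67 to 5.90 FPKM in the CTR and 5.05 to 7.57 FPKM in the TG papillomas. Their part in the level of Kit was not tested.

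Ms4a2 (chr19:11617193-11623643), the β chain of FcεRI and the most mast cell and basophil restricted of the receptor genes, was listed at 0 in all 4 CTR papillomas. It had 0.0431, 0.0585 and 0.163 FPKM in TG 1 to TG 3, which rested on 1, 1 and 3 reads. The groups therefore did not overlap (exact permutation p = 0.0286, the smallest this design can give), but 3 reads would have been worth 0.122 to 0.183 FPKM in the CTR papillomas, more than TG 1 and TG 2 showed. No difference of Ms4a2 was detectable at this depth, and without TG 3 the TG values rested on 1 read each. On the log2 scale the fitted difference was 0.23, and 0.14 without TG 3, and both depend on the pseudocount. Fcer1a (chr1:173221271-173227229), the IgE-binding α chain, had 0.107, 0.0565, 0.435 and 0.0590 FPKM in the CTR papillomas and 0.0462, 0.171 and 0.0574 FPKM in the TG papillomas. It was highest in CTR 3 with 10 reads, and the other 6 papillomas held 1 to 3 reads each. The exact permutation test gave p = 0.771 for Fcer1a, and its difference was -0.14 on the log2 scale and -0.10 without TG 3.

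Hdc (chr2:126593668-126618665), histidine decarboxylase, makes histamine and is expressed by mast cells, basophils and some other myeloid cells. It had 0.238, 1.24, 0.922 and 0.257 FPKM in CTR 1 to CTR 4 and 0.565, 3.15 and 14.3 FPKM in TG 1 to TG 3. TG 2 and TG 3 lay above every CTR papilloma, while TG 1 lay between the lower and the higher CTR pair. Hdc was well counted in the high libraries, with 107 reads in TG 2 and 446 in TG 3, and the interval given with the TG 3 value ran from 12.9 to 15.6 FPKM. The means were 0.666 ± 0.50 (SD, n = 4) and 6.00 ± 7.28 (SD, n = 3), and TG 3 alone held 79.3% of the TG sum. On the log2 scale the difference was 1.83 (SE 0.77, limma unadjusted p = 0.0410, adjusted p = 0.719), and without TG 3 it was 0.86, with an unadjusted p of 0.140 in limma. The unadjusted call was also lost without the filter, with robust moderation and without CTR 1, CTR 3, CTR 4 or TG 2, where the limma unadjusted p lay between 0.0522 and 0.0882. The limma unadjusted p was lowest without TG 1 (0.0018), with sample quality weights and without both CTR 3 and TG 1 (0.0038 each), and with a replicate block (0.017). The exact permutation test gave p = 0.114. The study's own differential expression with Cufflinks, not repeated here, listed Hdc as higher in the TG papillomas of these same libraries. The direction of Hdc here is therefore not independent evidence of a difference.

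**Figure D2:**
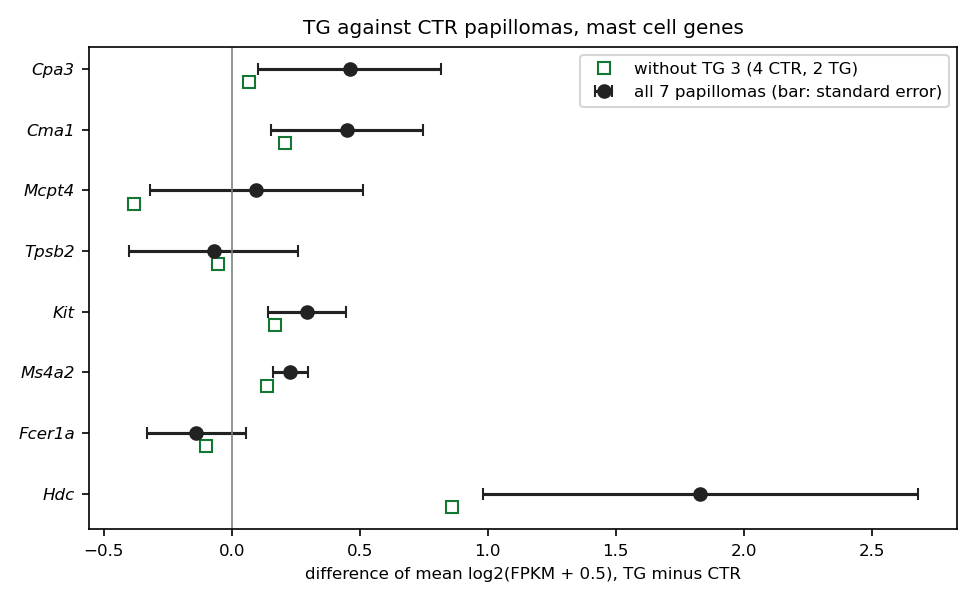
Difference between TG and CTR papillomas of each gene on the log2(FPKM + 0.5) scale, as points with bars of 1 standard error from limma fitted without the filter on low values, beside the value without TG 3 as open squares. Hdc moves from 1.83 to 0.86 and Mcpt4 from 0.10 to -0.38, a sign that quantile normalization also turns (-0.08).

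Hdc followed the protease sum in the order of the TG papillomas but not among the CTR papillomas. Its level per unit of the summed level of the 4 proteases was 0.0684, 0.468, 0.316 and 0.0475 in the CTR papillomas and 0.238, 0.740 and 1.82 in the TG papillomas. Within the CTR group CTR 4 had the highest protease sum and the lowest ratio, whereas CTR 2 had the lowest protease sum and the highest ratio. Relative to Cpa3 alone the ratio of Hdc ran from 0.320 in CTR 4 to 4.78 in CTR 2, and from 1.12 in TG 1 to 6.91 in TG 3.

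**Figure D3:**
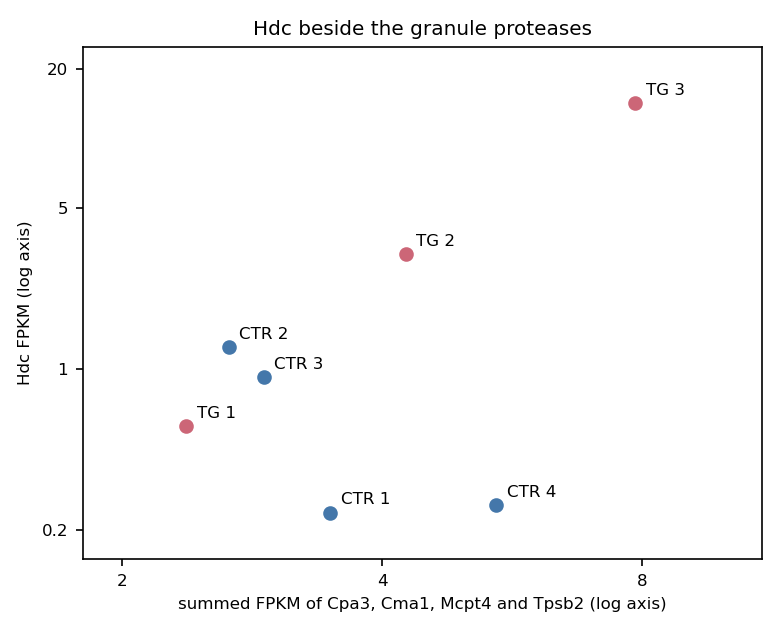
Hdc level against the summed level of Cpa3, Cma1, Mcpt4 and Tpsb2 in each of the 7 papillomas, both in FPKM on log axes, with CTR and TG papillomas marked by color. CTR 4 has the second highest protease sum (5.42 FPKM) but only 0.257 FPKM of Hdc.

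Other cells that express Hdc were checked by their markers. The basophil markers summed to 0.108 to 1.5 FPKM in the CTR papillomas and to 0.227, 4.31 and 0.198 FPKM in TG 1 to TG 3, and the basophil protease gene Prss34 was at 0 in all 7 papillomas. Mcpt8, the other basophil protease gene, had 0, 1.39, 0.622 and 0.0619 FPKM in the CTR papillomas and 0.227, 2.49 and 0 FPKM in the TG papillomas. CTR 2, CTR 3 and TG 2, which had the most Mcpt8, were also the highest papillomas for Hdc except TG 3, where Mcpt8 was at 0. Il4, the other leading gene of that list, was highest in TG 2 as well, at 1.54 FPKM. Cd200r3, named to complete the list, had 0.172, 0, 0 and 0.0459 FPKM in CTR 1 to CTR 4. In TG 1 to TG 3 it had 0, 0.271 and 0.198 FPKM. Unlike Mcpt8, it was thus at 0 in CTR 2 and CTR 3, and it alone made up the basophil sum of TG 3.

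Some myeloid markers were highest in TG 3. The 6 macrophage and monocyte markers summed to 88.2 FPKM in TG 3 and to 24.9 to 38.8 FPKM in the other papillomas, with Lyz2 at 54.1 FPKM in TG 3. Csf1r, Emr1, Mrc1 and Cd163, named to complete the list, were also highest in TG 3. They stood at 9.09, 3.34, 2.73 and 0.633 FPKM there and at no more than 3.51, 0.968, 1.41 and 0.608 FPKM elsewhere. Only Cd68, at 18.2 FPKM in TG 3, was within the range of the others. The 6 neutrophil markers found, led by S100a8 and S100a9, which stressed keratinocytes also make, summed to 607 to 1810 FPKM in the CTR and to 3367, 4222 and 1666 FPKM in the TG papillomas. Among them the granulocyte receptor gene Csf3r, named after its values were seen, was at 17.0 FPKM in TG 3 and at 0.265 to 0.750 FPKM elsewhere. The other neutrophil markers did not peak in TG 3. Cxcr2 was at 9.99 FPKM in TG 3 and 11.1 FPKM in TG 1. Mpo and Elane, neutrophil granule genes, were at 0.0339 and 0.0819 FPKM at most, with Elane at 0 in all but TG 2. Levels so near 0 cannot order the papillomas, and their bearing on the number of neutrophils was not tested. Tissue markers also set TG 3 apart. Fibroblast markers, Col1a2 and Col1a1 foremost, summed to 678 FPKM against 73.5 to 129 FPKM, skeletal muscle markers, Acta1 and Tnnt3 foremost, to 508 against 0.225 to 2.87 FPKM, and adipocyte markers, Cfd and Adipoq foremost, to 31.9 against 0 to 0.0484 FPKM. The summed keratinocyte markers, carried by Krt14 and Krt10, were lowest in TG 3, at 7113 FPKM against 8300 to 17509 FPKM, whereas Krt5 and Dsg3 of the same list were highest there, at 1783 and 257 FPKM, and Trp63 was within the range of the others. The part of these cells in the levels of Hdc, Cpa3, Cma1 and Mcpt4 was not tested. The T cell markers, Cd3g and Cd3d foremost, overlapped at 0.977 to 2.33 and 1.29 to 2.47 FPKM. The endothelial markers, Pecam1 and Cdh5 foremost, had sums of 6.28 to 10.4 and 9.13 to 23.1 FPKM.

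**Figure D4:**
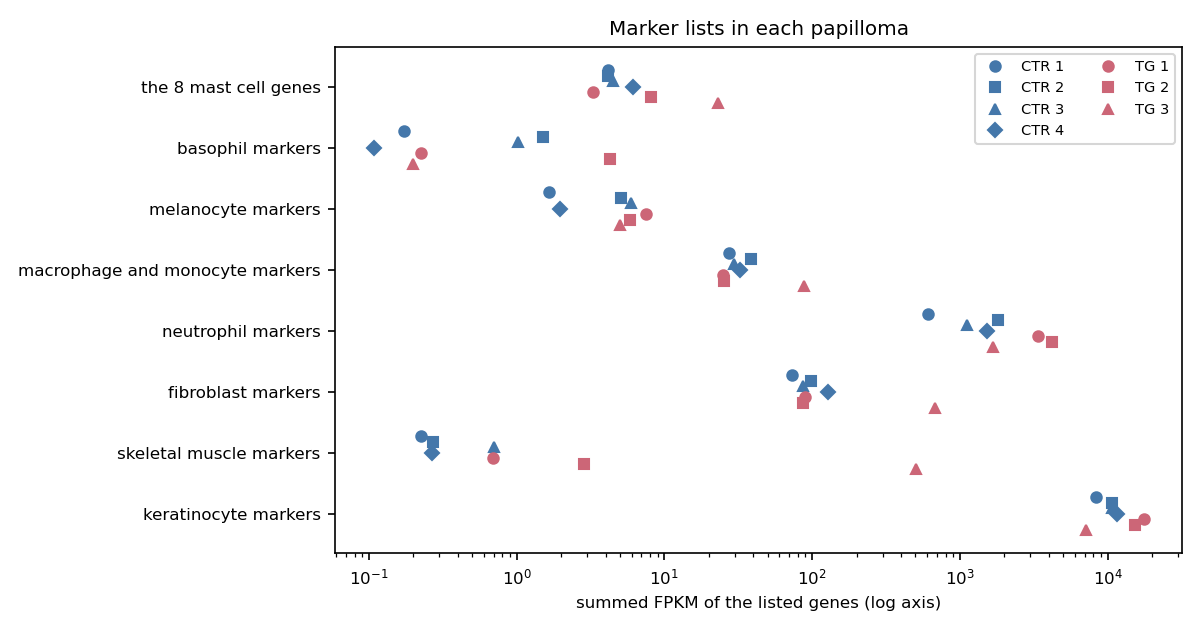
Summed level in FPKM of the 8 mast cell genes and of the markers of 7 other cell types in every papilloma, on a log axis, with CTR and TG papillomas as points. TG 3 is highest for the 8 mast cell genes and for the macrophage, fibroblast and skeletal muscle markers and lowest for the keratinocyte sum, which Krt14 and Krt10 carry.

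The counts over the members can be read against all genes. Of the 8 members 5 passed the filter on low values (an average of 0.5 FPKM or more in the 7 papillomas) and were tested (Cpa3, Cma1, Mcpt4, Tpsb2 and Hdc), and Kit, Ms4a2 and Fcer1a did not. After adjustment limma called 0 of the 5 members, and 0% of the 12299 tested genes were called higher and 0% lower. At an unadjusted p under 0.05 it called 1 member higher (Hdc) and 0 lower, where 4.86% of all tested genes were called higher and 1.96% lower. None of the 5 tested members had groups without overlap, against 4.93% of tested genes with every TG above every CTR papilloma and 2.23% with every TG below. Among the 19124 genes above 0 in any papilloma the share with every TG above was 5%, and of the 8 members it was Ms4a2 alone. The median difference of the 8 members was 0.26 on the log2 scale, with 6 positive and 2 negative (Mcpt4 turned negative after quantile normalization), and 0.10 without TG 3, where 5 were positive. The 5 tested members alone had a median of 0.45. The median of all tested genes was 0.06, and -0.03 without TG 3. TG 3 was the highest papilloma for 6 of the 8 members and for 4 of the 5 tested. Of all tested genes, 60% had a positive difference and 41.1% were highest in TG 3.

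The wider mast cell program was read from 8 lists of other genes, of which 59 of 60 were found and 28 passed the filter. The estimate of Il33 had failed. By limma 0 of the 28 passed after adjustment, and 5 were higher and 0 lower at an unadjusted p under 0.05. Over all tested genes the shares were 4.86% and 1.96%. The groups did not overlap for 8 of the 59, all with TG above, where the share among genes above 0 in any papilloma was 5%, and for 5 of the 28 tested, where it was 4.93%. The median difference of the 59, which include genes below the filter, was 0.25, and 0.14 without TG 3. The 28 tested genes alone had a median of 0.48, beside 0.06 for all tested genes.

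Of the other granule proteases, 4 had a positive and 3 a negative difference. Mcpt1 and Mcpt2, chymases of mucosal mast cells, were the most abundant of the 8 listed and the only ones tested. Mcpt1 had 0.169 to 2.02 FPKM in the CTR papillomas and 0.0361, 1.07 and 0.184 FPKM in the TG papillomas, and Mcpt2 had 0.246 to 2.14 and 0.123, 1.09 and 0.325 FPKM. The difference was -0.66 on the log2 scale for both, with overlapping groups, and TG 3 was not high for either. Among those below the filter, Gzmb, Cma2 and Tpsab1 (granzyme B, a chymase and a tryptase), named after their values were seen, had differences of 0.44, 0.31 and 0.25, with TG above CTR in 10, 10 and 9 of 12 pairs. Ctsg, cathepsin G, was at 0 in every papilloma.

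Of the granule matrix and amine storage genes, 4 of 6 were tested and none passed at an unadjusted p under 0.05 in limma. Over all tested genes 4.86% were higher and 1.96% lower at that threshold, so none among so few is no result about this list. Cd63, a granule membrane protein that many cells make, was the most abundant, with a difference of -0.38. Ndst2, which sulfates heparin in mast cells, was at 2.89 to 4.70 FPKM in the CTR and at 4.98, 5.67 and 5.58 FPKM in the TG papillomas. These groups did not overlap, and the difference was 0.37 (SE 0.20, limma adjusted p = 0.810). Srgn, the serglycin core protein, had its 3.44 to 12.1 FPKM in the CTR and 6.64, 18.4 and 85.7 FPKM in the TG papillomas, the same order of TG papillomas as Hdc. Its difference was 1.59 (SE 0.74, limma adjusted p = 0.760) and 0.63 without TG 3. Srgn was named after its values were seen and, like Hdc, is among the genes the study listed as higher in the TG papillomas of these libraries.

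The IgE receptor signaling list had 8 of 10 genes tested. Its most abundant genes were Fcer1g, the receptor γ chain that macrophages and neutrophils also use, and Plcg1, a phospholipase, which had differences of 0.33 and 0.34. Fcer1g was at 6.37 to 11.3 FPKM in the CTR papillomas and at 7.23, 5.96 and 29.8 FPKM in the TG papillomas, and its difference was -0.37 without TG 3. Lat2, an adaptor below the receptor, was at 1.02 to 2.24 FPKM in the CTR and at 3.26, 3.27 and 2.63 FPKM in the TG papillomas, with no overlap. Its difference was 0.73 (SE 0.23, limma adjusted p = 0.653) and 0.82 without TG 3. Btk, a kinase of the same cascade, was below the filter at 0.0726 to 0.174 and 0.178, 0.225 and 1.07 FPKM, again with no overlap.

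Among surface receptor genes, 3 of 10 were tested. Il3ra and Csf2rb, the α and common β chains of the IL-3 receptor, were the most abundant and had differences of opposite sign. Csf2rb had 0.610 to 1.47 FPKM in the CTR and 1.53, 2.43 and 8.61 FPKM in the TG papillomas, without overlap, a difference of 1.26 (SE 0.47, limma adjusted p = 0.702) and of 0.63 without TG 3. Il3ra had a difference of -0.40. Adora3, an adenosine receptor of mouse mast cells, was below the filter at 0 to 0.352 FPKM in the CTR and 0.358, 0.379 and 0.570 FPKM in the TG papillomas, so that CTR 4 and TG 1 nearly met.

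Of the 7 mast cell transcription factor genes 3 were tested. Gata2, a factor that mast cells, basophils and their progenitors need, was at 0.163, 0.297, 0.303 and 0.128 FPKM in the CTR and at 0.431, 1.03 and 0.447 FPKM in the TG papillomas, below the filter and without overlap (exact permutation p = 0.0286, difference 0.62, and 0.73 without TG 3). Stat5a, which acts below KIT and cytokine receptors, was at 0.963 to 1.35 and at 2.20, 2.26 and 1.73 FPKM, also without overlap, with a difference of 0.59 (SE 0.20, limma adjusted p = 0.686). Its paralog Stat5b had a difference of 0.35. Sfpi1, the gene of PU.1, a factor of all myeloid cells, was at 1.00 to 2.10 FPKM in the CTR and at 1.37, 2.08 and 9.68 FPKM in the TG papillomas, where only TG 3 left the CTR range.

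The lipid mediator enzymes had the largest median of the 8 lists, 0.84 over 5 genes, all tested, and 0.75 without TG 3. Hpgds, which makes prostaglandin D2 in mast cells and some other immune cells and was named after its values were seen, was at 1.49, 1.65, 1.74 and 4.25 FPKM in the CTR and at 7.41, 11.1 and 2.75 FPKM in the TG papillomas. Its difference was 1.36 (SE 0.46, limma adjusted p = 0.686) and larger, 1.88, without TG 3. Alox5ap, the partner of 5-lipoxygenase in leukotriene synthesis, was at 2.08 to 4.15 and at 4.04, 5.45 and 11.1 FPKM, a difference of 0.84 (SE 0.34, limma adjusted p = 0.706) and of 0.45 without TG 3. Alox5 itself was at 0.0227 to 0.668 and at 0.782, 1.39 and 0.902 FPKM, without overlap, and had an adjusted p = 0.784 in limma. Ptgs1, a cyclooxygenase of many cells, was the most abundant and had a difference of 0.01.

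**Figure D5:**
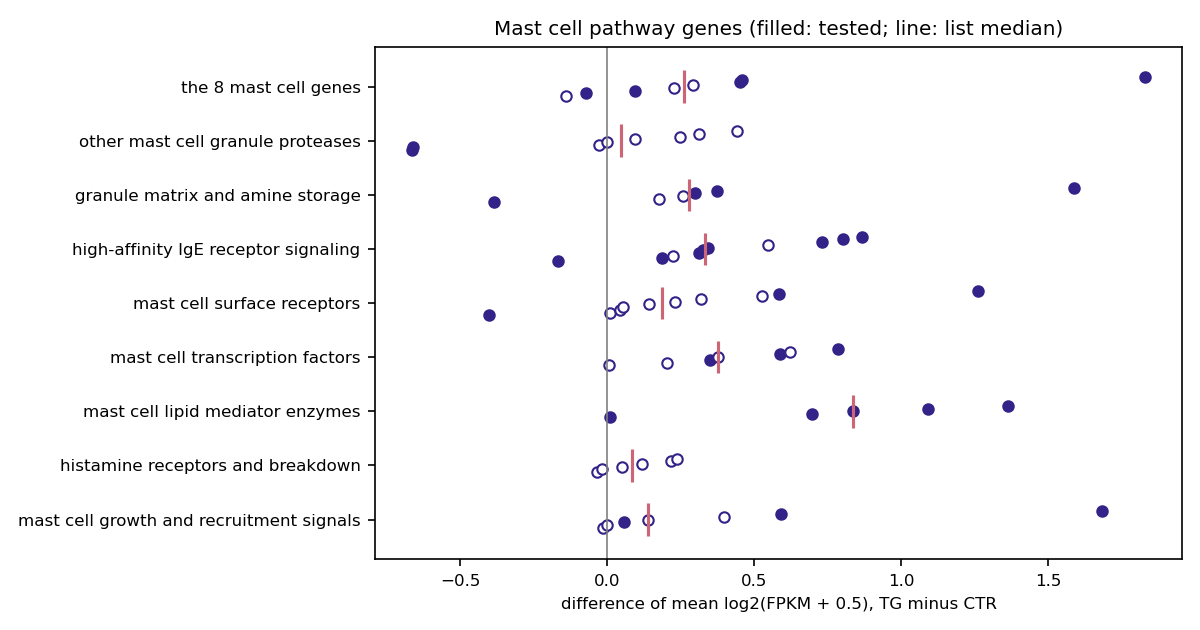
Difference between TG and CTR papillomas on the log2(FPKM + 0.5) scale for each of the 8 mast cell genes and each gene of the 8 other lists, as points (filled where tested), with the list median as a line. The lipid mediator enzymes, all tested, have a median of 0.84, beside 0.06 for all tested genes. The other granule proteases have one of 0.05 over all listed genes and of -0.66 over the 2 tested.

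The histamine receptors and breakdown enzymes were all below the filter. Hrh1 and Hnmt, the H1 receptor and the methyltransferase that inactivates histamine, were the most abundant, at means of 0.385 and 0.224 FPKM over the 7 papillomas. The growth and recruitment signals gave no ordering by group. Tslp, an epithelial cytokine that acts on mast cells and basophils, ranged from 0.419 to 25.4 FPKM in the CTR papillomas and was 54.8, 69.6 and 5.70 FPKM in the TG papillomas. Kitl, the KIT ligand, named for its role and outside the rule for named genes, was at 2.16 to 3.41 and at 1.43, 3.46 and 4.14 FPKM, and Il3 was at 0 in every papilloma.

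The genes whose pattern over the 7 papillomas was most like the members' were sought among all tested genes. The members' profile was the mean of the 5 tested genes, each centred on its own mean of log2 values, and was -0.35, -0.33, -0.28 and 0.01 in CTR 1 to CTR 4 and -0.48, 0.28 and 1.14 in TG 1 to TG 3. The nearest were Pik3cd, a catalytic subunit of phosphoinositide 3-kinase in leukocytes, at a root mean square distance of 0.0685 log2 units, Nfkbie, an inhibitor of NF-κB, at 0.124, Nnt, a mitochondrial transhydrogenase, and Slc39a14, a zinc transporter, both at 0.135, and Ciita, the regulator of MHC class II genes, at 0.142. Of the members, Cpa3 lay at 0.228 from this profile, Mcpt4 at 0.251, Cma1 at 0.268, Tpsb2 at 0.578 and Hdc at 0.981. The 5 nearest genes were picked as the smallest distances among all tested genes. Their being nearer than the members therefore carries no information. The profile covers only 7 libraries and its largest entry is TG 3, where Hdc entered with 2.98.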

How the data were processed

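Polyadenylated RNA of 7 papillomas was sequenced by the authors as stranded single reads of 40 bases. Per the labels and the methods of the study, alignment was by TopHat 2.0.4 (Bowtie 0.12.7, SAMtools 0.1.16), the mouse build was GRCm38/mm10, and Cufflinks 1.3.0 gave FPKM per gene. The sources name different RNA extraction kits. The deposited FPKM values, scaled to transcript length and library size, are the sole measure used here. Reads that align to several genes were kept, which can blur near-identical proteases.

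Of 23284 symbols, 240 had more than 1 entry, which were summed, and 162 with a failed estimate in any papilloma were left out, leaving 23122. Read numbers behind a value were recovered from the intervals given by Cufflinks. Of low values 67.0% to 68.5% came out whole within 0.05, which is too few for a count test. Such reads and the floor of 3 reads cover counting error only. The groups were set against each other with limma 3.58.1 (R 4.3.3), with a trend in the variance, on log2(FPKM + 0.5) over the 12299 genes that averaged 0.5 FPKM or more, with Benjamini-Hochberg adjustment and a threshold of 0.05. Differences on this scale understate the change of low genes. Single genes were also tested by 2-sided exact permutation over the 35 assignments of the papillomas. The fit was tested on simulated data. Windows of 40 bases were compared between transcripts with blastn 2.17.0. Other tables were made with Python 3.11.15, pandas 2.3.3 and SciPy 1.17.1.

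The genes named were the 8 members, Nanog, the 2 genes of highest mean FPKM and any gene without overlap between groups in each mast cell list, the leading genes of each marker list, and the 5 nearest genes; exceptions are marked, and 2 of these genes are not reported here. Ly6g and Trac, of the neutrophil and T cell lists, had no entry. The members and lists were chosen with earlier results of these data known. Alternatives were the pseudocount, the filter, the scaling, the moderation, quality weights, a replicate block, the handling of entries and leaving out each papilloma or those of higher depth.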

Additional observations from a re-analysis of the deposited data

Results flagged for a closer look

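Examined were 9 groups of 4 CTR values (the 8 members and Nanog), of which Ms4a2, at 0 in all 4, could not be flagged. A value was flagged if its gap to the nearest divided by the range was above Dixon's 95% critical value. Chance gives about 1 in 20 of the groups that can be flagged. By this rule 2 values were set far from the others. Both were in CTR 3. Fcer1a was at 0.435 FPKM there, with a gap of 0.865 of the range, and rested on 10 reads. Nanog was at 12.7 FPKM in CTR 3, with a gap of 0.936 of the range. CTR 3 lacks the transactivator and was among the 2 deepest libraries. Whether the values share a source was not tested. The TG group holds 3 papillomas, too few for this check.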

How the results depend on the processing

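None of the 5 tested members reached an adjusted p under 0.05 in any alternative that tested it, nor did Kit, Ms4a2 and Fcer1a in the fit without a filter, the single one that tested them. The lowest adjusted p was 0.0954, for Hdc with sample quality weights, and its difference ranged from 0.86 without TG 3 to 2.89 in the papillomas of lower depth (without CTR 3 and TG 1). Cpa3 ranged from 0.07 to 0.77 and Cma1 from 0.21 to 0.66, both positive throughout. Mcpt4 turned to -0.0789 with quantile normalization and -0.13 with sample quality weights, and ranged from -0.38 (without TG 3) to 0.51 when 1 papilloma was left out. Tpsb2 turned to 0.12 with the replicate block and 0.0567 in the papillomas of lower depth, and ranged from -0.29 to 0.12 when 1 papilloma was left out. Fcer1a turned to 0.0917 in the papillomas of lower depth and ranged from -0.23 to 0.0374 when 1 papilloma was left out, the latter without CTR 3. Kit moved to 0.54 with a pseudocount of 0.1 and was 0.0932 with quantile normalization, and Ms4a2 to 0.86 and 0.12 with pseudocounts of 0.1 and 1. With a filter at a mean of 2 FPKM, Hdc was the single member tested.

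Over all genes, sample quality weights called 49 genes higher and 36 lower, the papillomas of lower depth 1 higher, and leaving out 1 papilloma 0 to 9 higher and 0 to 8 lower, the most without TG 3 (2 higher without TG 1, 1 without CTR 3). At an unadjusted p under 0.05, quantile normalization gave 394 genes higher and 561 lower, where the reported fit gave 598 and 241, and sample quality weights gave 1161 and 1248. The cause was not tested. The labels do not say whether the replicate numbers pair papillomas. Same-numbered deviations from the group means correlated at -0.186, 0.0431 and -0.146, and 0 of 3 TG papillomas correlated best with their own number. So few papillomas cannot decide whether a pairing exists. The replicate block, which drops CTR 4, gave 505 higher and 170 lower at an unadjusted p under 0.05 and changed no member's call.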
